A study of Homo sapiens with 6 samples.

Results

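The HOX genes of the 4 human clusters, HOXA to HOXD, were followed in the tongue carcinoma line CAL-27 in adherent and in sphere culture. Members were the rows whose symbol is HOX, a cluster letter and a paralogue number: 39 of the 17110 genes in the table, of which 11 belong to HOXA, 10 to HOXB, 9 to HOXC and 9 to HOXD. A mean of at least 1 TPM over the 6 libraries was reached by 25 of the 39 (64.1%), against 71.7% of all genes. TPM is a transcript level corrected for transcript length and scaled to the same total in each library, so levels of different genes can be set side by side.

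The established human line CAL-27 derives from a tongue squamous carcinoma. The parental group was the line grown in adhesion, and the sphere group came from suspension culture of the same line, which the study used to isolate cells it regarded as cancer stem cells. Each group had 3 libraries of total RNA, and the labels name no other treatment, genotype or culture time. No label tells whether replicates are cultures grown apart, so a p-value here reflects the scatter among 3 libraries a group, which may be technical. A common cell stock for the groups is not stated either.

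HOX genes encode homeodomain transcription factors that assign position along the body axis. Within a cluster the genes lie in the order in which they are switched on from head to tail, so low paralogue numbers mark anterior and high numbers posterior identities, and genes with the same number in different clusters are copies that arose by duplication of a whole cluster. Polycomb complexes keep silent HOX genes repressed, trithorax complexes keep active ones on, and retinoic acid turns on the anterior ones in the embryo. The front of the tongue forms from the first branchial arch, whose mesenchyme lacks HOX expression in the embryo, whereas carcinomas of the mouth often express HOX genes.

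The squamous label was checked first. All 11 squamous markers looked at were above 1 TPM in both groups, and their summed level was 2164 to 2178 TPM in parental and 31409 to 31726 TPM in sphere libraries. Of these, 10 rose and EPCAM fell (311 and 160 TPM in the mean, parental before sphere). KRT14 (4.69 and 7705 TPM), PKP1 (5.47 and 403 TPM), DSG3 (7.82 and 162 TPM) and DSC3 (4.51 and 86.0 TPM) were low in parental libraries. The highest markers there were KRT5 (722 TPM) and SFN (654 TPM). Markers of other cell types also differed: summed levels were 11.97 to 12.41 and 15.7 to 17.3 TPM for 7 fibroblast markers (COL1A1 8.15 and 16.1 TPM, PDGFRB 2.63 and 0.087 TPM in the mean), 48.3 to 53.0 and 176 to 182 TPM for 7 leukocyte markers (CD68 alone 48.1 and 176 TPM in the mean), and 20.5 to 21.6 and 10.6 to 12.3 TPM for 4 endothelial markers (CDH5 10.99 and 0.01 TPM, EGFL7 9.70 and 11.5 TPM in the mean), parental values given before sphere values. The leukocyte genes PTPRC and CD3E and the fibroblast collagen COL3A1 were listed at 0 in each parental library and reached at most 0.2 TPM in a sphere library. Other genes of these lists were above 0 in each parental library. Among them were CD14 (1.29 and 1.22 TPM in the mean), ITGAM (1.09 and 0.64 TPM), COL1A2 (0.76 and 0.11 TPM), LUM (0.42 and 0.22 TPM) and PDGFRA (0.26 and 0.07 TPM). Whether any of this has a part in the HOX results was not tested.

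The HOX repertoire of CAL-27 shifted from one led by HOXA5 to one led by the middle and posterior HOXD genes. The most abundant gene changed: HOXD10 ranked 9 of 39 in parental and 1 in sphere libraries, and HOXA5 ranked 1 and 15. Over all 39 genes the summed HOX level was 115 ± 2.25 TPM in parental libraries and 147 ± 5.79 TPM in sphere libraries (mean ± SD of 3 libraries, as for all such values here), a ratio of 1.28. In bulk RNA a smaller share of cells that express a gene and less RNA per cell cannot be told apart, here and in every result that follows.

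The cluster totals moved by different amounts. HOXD held 14.3 ± 1.18 TPM in the parental group and 72.7 ± 3.48 TPM in the sphere group, 5.07 times as much. HOXA held 55.9 ± 2.02 and 33.7 ± 0.31 TPM, and HOXB 22.7 ± 0.57 and 14.5 ± 1.18 TPM. HOXC differed least, at 22.5 ± 1.79 and 26.3 ± 1.68 TPM, and its lowest sphere library (24.45 TPM) was below its highest parental one (24.55 TPM). The other 3 clusters had no overlap between groups. As a share of all HOX transcript, HOXA went from 48.4% to 22.9% and HOXD from 12.4% to 49.4%. A single gene accounts for most of the HOXA difference: without HOXA5 the cluster held 33.5 ± 0.20 and 31.2 ± 0.31 TPM. HOXD without HOXD10 still held 10.1 ± 0.78 and 40.1 ± 2.68 TPM.

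**Figure D1:**
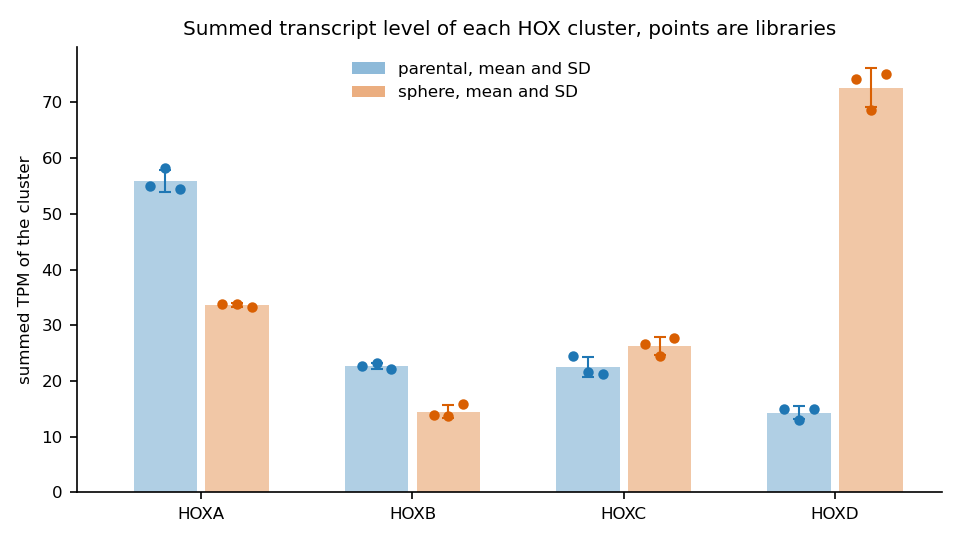
Summed TPM of the members of each cluster. Bars are group means, error bars the SD over 3 libraries and points single libraries. HOXD is the lowest cluster in parental libraries (14.3 TPM) and the highest in sphere libraries (72.7 TPM), while the HOXC groups overlap.

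Single genes were tested with limma on log2(TPM + 1) over all 12261 genes with a mean of at least 1 TPM, as a two-sided test adjusted after Benjamini and Hochberg, and a gene was called at an adjusted p under 0.05. Of the 25 HOX genes tested, 18 were called (72%), where 83.4% of all tested genes were called. Of these, 10 rose (40%) and 8 fell (32%), against 35.1% and 48.2% of all tested genes. Among all called genes 42.2% were higher, and 50.7% with median-of-ratios scaling (5166 higher and 5026 lower), under which 10 HOX genes were higher and 6 lower. So many genes differed between these libraries that a call alone says little about HOX genes, and the sizes and the distribution over clusters carry the description. The median difference of the 25 was 0.04 on the log2(TPM + 1) scale, and that of all tested genes was -0.13. HOXD1 and HOXC11 passed the level filter only through their sphere libraries and HOXA2 only through its parental ones. The group means of these genes therefore had to differ in that direction.

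All 39 genes, tested or not, can be described by whether the 3 libraries of one group lie apart from the 3 of the other. Groups did not overlap for 24 genes, 13 with sphere higher and 11 with sphere lower, where 70.5% of all genes in the table had groups that did not overlap, 29.7% with sphere higher and 40.8% with sphere lower. The 24 are the 18 called genes and 6 of the 14 genes under the level filter, and the background is 84.6% of tested genes and 34.7% of genes under the filter. When no level filter was set, 14 HOX genes were called higher and 11 lower, where 67.2% of all 17110 genes were called, 28.3% higher and 38.9% lower. All 9 HOXD genes had the higher mean in sphere libraries, 7 of them without overlap. Among the 10 HOXB genes 8 had the lower mean there, 6 without overlap, and none was higher without overlap. HOXA had 3 without overlap in each direction, and HOXC 3 higher and 2 lower. Adjacent members of a cluster had the same direction of their means in 8 of 8 pairs in HOXD, 7 of 9 in HOXB, 5 of 10 in HOXA and 3 of 8 in HOXC.

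**Figure D2:**
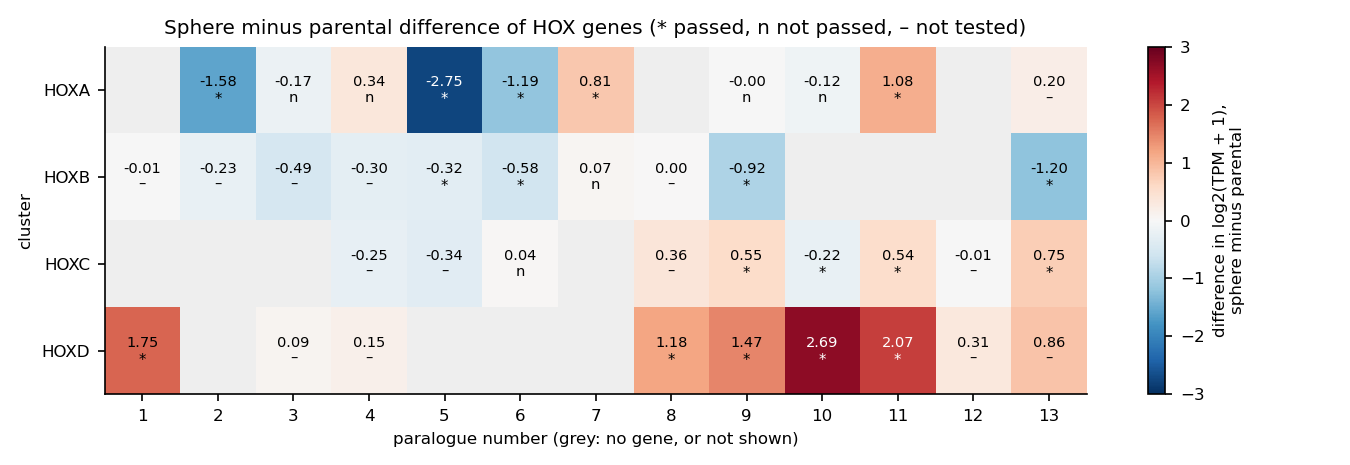
Difference in log2(TPM + 1), sphere minus parental, for HOX genes, with clusters as rows and paralogue numbers as columns (grey where no gene exists or is shown). Red is higher and blue lower in sphere libraries, an asterisk marks a called gene, n a tested gene that was not called and a dash a gene under the level filter. The HOXD row is red throughout, and the largest values are 2.69 for HOXD10 and -2.75 for HOXA5.

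The HOXD cluster rose at each of its 5 tested members, HOXD1, HOXD8, HOXD9, HOXD10 and HOXD11. HOXD10 (Entrez Gene 3236), which in the mouse patterns motor neurons of the hindlimb, was at 4.55, 3.75 and 4.36 TPM in parental replicates 1 to 3 and at 33.74, 31.46 and 32.53 TPM in sphere replicates 1 to 3. HOXD11 (Entrez Gene 3237), which with HOXA11 forms the forearm and kidney in the mouse, was at 3.24, 2.83 and 2.25 TPM and at 14.87, 13.83 and 15.47 TPM. All sphere libraries lay far above all parental ones for both genes. The mean TPM of HOXD10 was 7.72 times higher in sphere libraries, with a log2(TPM + 1) difference of 2.69 ± 0.07 (SE; limma adjusted p = 6.4e-10), and that of HOXD11 was 5.31 times higher, with a difference of 2.07 ± 0.10 (adjusted p = 3.7e-08). HOXD10 stood above 40.9% of all genes of the table in parental libraries and above 75.2% in sphere libraries.

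HOXD8 and HOXD9, which precede them in the cluster, rose less. HOXD9 (Entrez Gene 3235) was at 3.41, 2.84 and 3.32 TPM in parental and at 10.9, 9.43 and 11.63 TPM in sphere libraries, 3.34 times higher in the mean (difference 1.47 ± 0.10, adjusted p = 2.6e-07). HOXD8 (Entrez Gene 3234) was at 2.85, 2.41 and 3.44 TPM and at 7.99, 7.22 and 8.23 TPM, 2.69 times higher (difference 1.18 ± 0.11, adjusted p = 3.3e-06). Neither gene's groups came near each other. HOXD8 to HOXD11 together made up 91.3% of the HOXD transcript in parental and 90.5% in sphere libraries, so the block kept its share while its level went from 13.1 ± 1.14 to 65.8 ± 3.32 TPM. In the annotation GENCODE 29, HOXD8 and HOXD9 share exonic bases with no other gene, whereas HOXD10 and HOXD11 overlap each other on the same strand, so how reads were divided between those 2 is uncertain.

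The ends of the HOXD cluster were lower. HOXD1 passed the level filter only through its sphere libraries, so its group means had to differ, with sphere higher. HOXD1 (Entrez Gene 3231), the most anterior member, was at 0.7, 0.6 and 1 TPM in parental and at 4.54, 4.73 and 5.54 TPM in sphere libraries, 6.44 times higher in the mean (difference 1.75 ± 0.12, adjusted p = 3.4e-07). HOXD13 (Entrez Gene 3239), a gene of digit formation whose mutations cause synpolydactyly in humans, was at 0.19, 0.27 and 0.31 TPM and at 1.57, 1.23 and 1.06 TPM. Its mean over the 6 libraries, 0.772 TPM, kept it out of the test. With no level filter at all its adjusted p was 1.2e-04. HOXD12 was at 0.07 TPM in each parental library and at 0.34, 0.48 and 0.18 TPM in the sphere libraries. HOXD3 and HOXD4, between HOXD1 and HOXD8, stayed at or below 0.3 TPM in every library, and their groups overlapped, so the silent stretch of the cluster lies between members that were expressed.

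The promoter windows of HOXD1, HOXD10 and HOXD11 are shown because these 3 genes had the largest ratios among the called HOXD members, with that of HOXA2, a gene that fell, for contrast. Each window runs from 250 bases before to 50 bases after the gene's start in RefSeq (GRCh38.p14), 5′ to 3′ on the gene's own strand. Capitals mark CACGTG, the E-box core, and TGATNNAT, a pattern bound by pairs of PBX and HOX proteins, searched on both strands. CACGTG reads the same on both strands, holds a CpG and was chosen after the sequences were seen. The windows lie at chr2:176188418-176188717 (HOXD1), chr2:176116528-176116827 (HOXD10) and chr2:176107030-176107329 (HOXD11), all on the plus strand, and at chr7:27102634-27102933 (HOXA2) on the minus strand.
HOXD1: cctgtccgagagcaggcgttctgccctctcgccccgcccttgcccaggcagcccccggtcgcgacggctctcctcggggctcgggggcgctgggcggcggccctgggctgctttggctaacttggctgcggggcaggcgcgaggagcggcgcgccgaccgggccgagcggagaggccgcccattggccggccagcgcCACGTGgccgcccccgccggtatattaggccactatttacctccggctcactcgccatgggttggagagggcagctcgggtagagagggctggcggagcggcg
HOXD10: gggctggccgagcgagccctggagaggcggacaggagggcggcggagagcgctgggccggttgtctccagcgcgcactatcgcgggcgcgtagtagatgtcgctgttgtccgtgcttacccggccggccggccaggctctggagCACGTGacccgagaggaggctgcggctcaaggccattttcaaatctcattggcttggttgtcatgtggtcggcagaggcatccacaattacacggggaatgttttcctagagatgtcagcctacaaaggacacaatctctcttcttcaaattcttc
HOXD11: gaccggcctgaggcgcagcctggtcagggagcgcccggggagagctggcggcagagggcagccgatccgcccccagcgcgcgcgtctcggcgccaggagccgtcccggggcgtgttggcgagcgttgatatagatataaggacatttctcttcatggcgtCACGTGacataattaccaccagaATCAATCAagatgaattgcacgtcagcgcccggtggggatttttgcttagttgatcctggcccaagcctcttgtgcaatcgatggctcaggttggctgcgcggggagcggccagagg
HOXA2: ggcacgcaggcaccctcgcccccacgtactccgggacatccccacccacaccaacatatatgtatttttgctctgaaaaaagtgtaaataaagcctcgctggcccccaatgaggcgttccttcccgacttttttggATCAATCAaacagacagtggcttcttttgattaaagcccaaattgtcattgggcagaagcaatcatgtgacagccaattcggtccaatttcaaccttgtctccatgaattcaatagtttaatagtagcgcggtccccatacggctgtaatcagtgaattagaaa

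In these letters, HOXD1, HOXD10 and HOXD11 each hold 1 CACGTG, HOXD11 also holds 1 TGATNNAT, and HOXA2 holds 1 TGATNNAT and no CACGTG. RefSeq windows were at hand for 20 of the 39 HOX genes, some with several starts. CACGTG was found in 5 of 8 HOXD windows, 4 of 16 HOXA windows, neither in the single window listed for both HOXC4 and HOXC5 nor in the HOXB1 window, and in 7.26% of all 35116 windows of the table. Of the 16 HOXA windows, 7 belong to HOXA3, of which 1 holds CACGTG, and 2 to HOXA10, while each HOXD gene has 1. These counts of windows are therefore not counts of genes. The HOXD windows with it include HOXD3, which was near 0 TPM, and HOXD8 rose without it. In HOXA, HOXA4 and HOXA9 hold it and were not called, HOXA7 holds it and rose, and HOXA11 rose without it. TGATNNAT was in 7.40% of all windows. HOX windows held a median of 22 CpG dinucleotides, with a range of 0 to 44, against 14 over all windows. These matches describe the sequence only, and no binding was measured.

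HOXA split between falls at HOXA2, HOXA5 and HOXA6 and rises at HOXA7 and HOXA11, with 5 tested members not called. HOXA5 (Entrez Gene 3202), which in the mouse is needed for lung and airway formation, was the most abundant HOX transcript of parental cells. It was at 21.3, 24.81 and 21.18 TPM in parental replicates 1 to 3 and at 3, 2.61 and 1.9 TPM in sphere replicates 1 to 3. The lowest parental library was several times the highest sphere library. The mean was 8.96 times lower in sphere libraries, with a log2(TPM + 1) difference of -2.75 ± 0.12 (SE; adjusted p = 1.4e-08), the largest fall of any tested HOX gene. HOXA5 shares exonic bases with no other gene in GENCODE 29.

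The neighbours of HOXA5 did not all follow it. HOXA6 (Entrez Gene 3203) was at 4.65, 4.09 and 3.13 TPM in parental and at 1.61, 0.75 and 1.2 TPM in sphere libraries (difference -1.19 ± 0.17, adjusted p = 8.1e-05). HOXA2 (Entrez Gene 3199), which in the mouse sets the identity of the second branchial arch, was at 4.08, 3.32 and 3.64 TPM and at 0.85, 0.43 and 0.43 TPM (difference -1.58 ± 0.13, adjusted p = 1.6e-06). Both genes had every sphere library below every parental one. HOXA2 passed the level filter only through its parental libraries, so its group means had to differ, with sphere lower. HOXA3, between HOXA2 and HOXA4, was at 4.39 ± 0.30 and 3.80 ± 0.29 TPM with groups that overlapped (difference -0.17, 95% interval -0.36 to 0.03). HOXA4, next to HOXA5 on its anterior side, was at 1.58, 2.63 and 1.02 TPM and at 1.97, 2.43 and 2.75 TPM (difference 0.34, interval -0.10 to 0.78, adjusted p = 0.13). Without parental replicate 2 HOXA4 passed (adjusted p = 0.0075).

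The rises in HOXA lay on the posterior side of HOXA6. HOXA7 (Entrez Gene 3204), next to HOXA6, was at 1.75, 1.49 and 2.12 TPM in parental and at 3.68, 3.56 and 4.36 TPM in sphere libraries (difference 0.81 ± 0.11, adjusted p = 9.4e-05). HOXA11 (Entrez Gene 3207) was at 1.68, 1.89 and 1.48 TPM and at 5.7, 4.42 and 4.01 TPM, 2.80 times higher in the mean (difference 1.08 ± 0.12, adjusted p = 1.9e-05). Each of these genes had all sphere libraries above all parental ones. HOXA9, a gene known for its part in leukaemia, was at 1.44 ± 0.54 and 1.40 ± 0.15 TPM (difference -0.00, interval -0.35 to 0.34). HOXA10, which patterns the uterus in the mouse, was at 7.67 ± 0.68 and 6.94 ± 0.42 TPM (difference -0.12, interval -0.31 to 0.06). The groups of both genes overlapped, and changes within the intervals given are not excluded by these data. HOXA13, under the filter, was at 0.31, 0.41 and 0.2 TPM and at 0.45, 0.53 and 0.52 TPM.

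**Figure D3:**
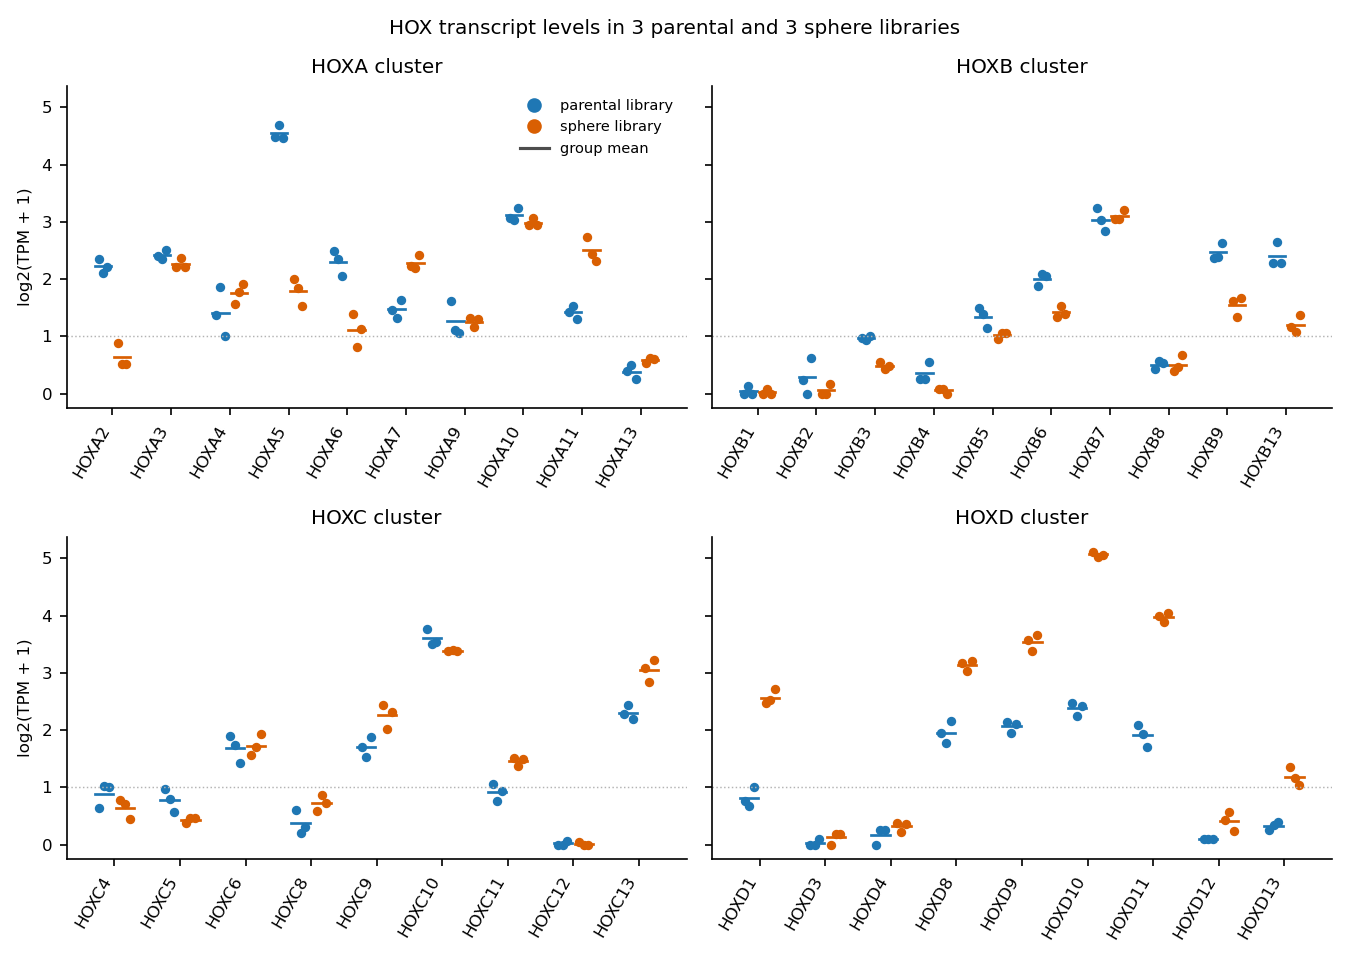
Level of HOX genes in each library as log2(TPM + 1), by cluster, with members in paralogue order. Points are libraries, bars group means, and the dotted line marks 1 TPM. HOXA5 stands highest in parental libraries and HOXD10 in sphere libraries, and the groups of HOXD8, HOXD9, HOXD10 and HOXD11 lie apart.

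HOXB fell at 4 of its 5 tested members, most at the posterior end. HOXB13 (Entrez Gene 10481), a partner of the androgen receptor in the prostate, was at 3.89, 5.26 and 3.85 TPM in parental and at 1.23, 1.1 and 1.59 TPM in sphere libraries, 3.32 times lower in the mean (difference -1.20 ± 0.13, adjusted p = 1.3e-05). HOXB9 (Entrez Gene 3219) was at 4.16, 4.26 and 5.22 TPM and at 2.07, 1.54 and 2.17 TPM (difference -0.92 ± 0.12, adjusted p = 4.5e-05). In both, parental and sphere libraries did not overlap, and neither shares exonic bases with another gene in GENCODE 29.

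The exception was HOXB7, the most abundant HOXB transcript, which lies between HOXB6, a gene that fell, and the weakly expressed HOXB8. HOXB7 (Entrez Gene 3217) was at 8.49, 7.14 and 6.19 TPM in parental and at 7.33, 7.26 and 8.27 TPM in sphere libraries, with groups that overlapped (difference 0.07, 95% interval -0.17 to 0.30). Its share of the HOXB transcript went from 32.1% to 52.6%. HOXB6 fell from 3.01 ± 0.30 to 1.68 ± 0.19 TPM (difference -0.58 ± 0.10, adjusted p = 4.8e-04). HOXB5 was at 1.82, 1.63 and 1.22 TPM and at 0.94, 1.08 and 1.09 TPM (difference -0.32 ± 0.12, adjusted p = 0.031), but its call was lost when any library other than parental replicate 3 was left out (adjusted p up to 0.11). HOXB8 stayed between 0.31 and 0.59 TPM with groups that overlapped. The anterior HOXB genes were all under the filter, with HOXB3 at 0.967 ± 0.050 and 0.397 ± 0.060 TPM the highest of them and HOXB1, HOXB2 and HOXB4 at a mean of at most 0.283 TPM in either group.

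HOXC held smaller differences in both directions. HOXC13 (Entrez Gene 3229), which drives keratin genes of hair and nail, was at 3.85, 4.42 and 3.55 TPM in parental and at 7.48, 6.2 and 8.3 TPM in sphere libraries, 1.86 times higher in the mean (difference 0.75 ± 0.11, adjusted p = 1.3e-04). HOXC9 (Entrez Gene 3225), which sets thoracic motor neuron identity in the mouse, was at 2.26, 1.89 and 2.68 TPM and at 4.43, 3.06 and 3.95 TPM (difference 0.55 ± 0.13, adjusted p = 0.0033). Sphere libraries lay above parental ones throughout in both genes. HOXC11 was at 1.08, 0.7 and 0.92 TPM and at 1.85, 1.58 and 1.83 TPM (difference 0.54 ± 0.12, adjusted p = 0.0017). It passed the level filter only through its sphere libraries, so its group means had to differ, with sphere higher.

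The most abundant HOXC gene went slightly the other way. HOXC10 (Entrez Gene 3226) was at 12.61, 10.36 and 10.68 TPM in parental and at 9.45, 9.53 and 9.46 TPM in sphere libraries (difference -0.22 ± 0.08, adjusted p = 0.027). Its groups lay apart, but the call was lost when parental replicate 1 or any sphere library was left out (adjusted p up to 0.10). HOXC6 was at 2.25 ± 0.51 and 2.33 ± 0.43 TPM (difference 0.04, 95% interval -0.28 to 0.36). HOXC6 overlaps exons of HOXC4, HOXC5 and HOXC9 on the same strand in GENCODE 29, so its reads cannot be assigned with certainty. HOXC4, HOXC5, HOXC8 and HOXC12 were under the filter, with means of at most 0.863 TPM in either group. Around the filter, HOXC5, HOXB3, HOXC4 and HOXD13 lay just below it at means of 0.538, 0.682, 0.715 and 0.772 TPM over all libraries, and HOXB5, HOXC11, HOXA9 and HOXA4 just above it at 1.3, 1.33, 1.42 and 2.06 TPM.

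Read across the clusters, the leading gene changed between parental and sphere libraries in some paralogue groups and stayed the same in others. By mean share, HOXD8 led group 8 (79.9% and 87.8%), HOXB7 group 7 (80.0% and 66.4%) and HOXD11 group 11 (51.5% and 69.6%) in both. In group 6, HOXA6 led in parental (42.7%) and HOXC6 in sphere libraries (44.7%). Within group 10, HOXC10 supplied the largest share of the transcript in parental libraries and HOXD10 in sphere libraries. The share of HOXD10 in that group was 18.2% ± 0.56 in parental and 66.5% ± 1.35 in sphere libraries (SD, n = 3 each), and the group's total went from 23.1 ± 1.64 to 49.0 ± 0.80 TPM. The ratio of HOXD10 to HOXA10 was 0.618, 0.521 and 0.516 in the parental libraries and 5.02, 4.23 and 4.87 in the sphere libraries, so the order of these 2 genes was opposite in the 2 groups. A ratio within a library does not depend on how libraries were scaled.

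The leading gene changed in groups 9 and 13 as well. In group 9, HOXB9 held 39.8% ± 4.16 of the transcript in parental and 10.8% ± 0.62 in sphere libraries, while HOXD9 held 28.7%, 28.0% and 26.99% in the parental libraries and 57.7%, 61.8% and 60.5% in the sphere libraries. In group 13, HOXB13 held 48.9% ± 1.79 and 12.5% ± 1.24, and HOXC13 44.8% ± 2.03 and 70.2% ± 2.0, without overlap between the groups. The total of group 13 was 8.84 ± 1.33 and 10.4 ± 1.23 TPM, and its groups overlapped. In group 11 all 3 members rose, and the total went from 5.36 ± 0.68 to 21.2 ± 1.3 TPM. Among them, HOXC11 passed the level filter only through its sphere libraries. In group 5, HOXA5, HOXB5 and HOXC5 were all lower without overlap, as were 40.8% of all genes in the table. The total of group 5 was 24.7 ± 2.21 and 3.89 ± 0.46 TPM. HOXA5 made up 90.8% of it in parental and 63.8% in sphere libraries. HOXC5 was under the filter, and the HOXB5 call was not stable when libraries were left out.

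**Figure D4:**
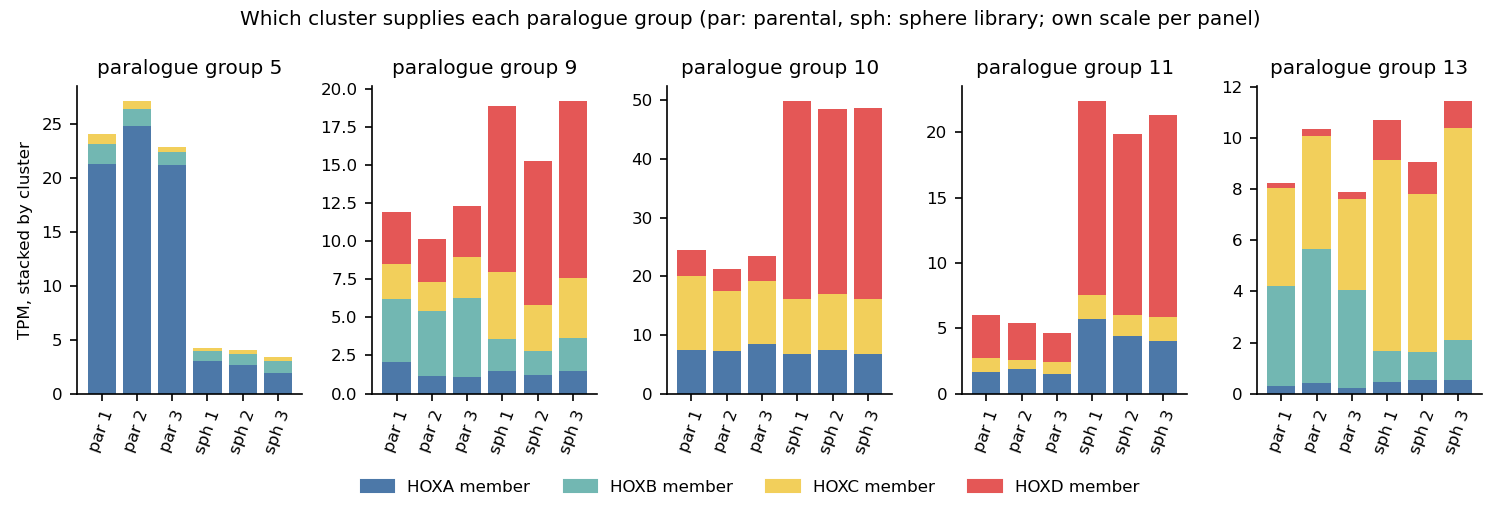
TPM of paralogue groups 5, 9, 10, 11 and 13 in each library, stacked by the cluster that supplies it, with a separate vertical scale in each panel. The HOXD segment is the largest one of groups 9, 10 and 11 in every sphere library, and the HOXA5 segment that fills group 5 in parental libraries is small in sphere libraries.

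By position along the axis, the balance moved toward posterior genes, most of it at HOXD9, HOXD10, HOXD11 and HOXA5. Paralogues 9 to 13 totalled 48.8 ± 1.73 and 98.7 ± 4.98 TPM in parental and sphere libraries. Mean levels went from 3.19 to 10.7 TPM in HOXD9, from 4.22 to 32.6 TPM in HOXD10 and from 2.77 to 14.7 TPM in HOXD11. Paralogues 5 to 8 totalled 46.6 ± 2.91 and 29.5 ± 1.48 TPM, and HOXA5 alone 22.4 ± 2.06 and 2.50 ± 0.56 TPM. Paralogues 9 to 13 held 42.3% of all HOX transcript in parental and 67.1% in sphere libraries, paralogues 5 to 8 held 40.4% and 20.0%, and paralogues 1 to 4 held 17.3% and 12.9%. Among the 16 genes of numbers 9 to 13, 12 were tested, of which 7 rose and 3 fell. Among the 11 of numbers 5 to 8, 8 were tested, of which 2 rose and 4 fell, and among the 12 of numbers 1 to 4, 5 were tested, of which 1 rose and 1 fell. The shares called were 83.3%, 75% and 40%, where 83.4% of all tested genes were called, 35.1% higher and 48.2% lower. HOXB9 and HOXB13, of high numbers, fell, HOXA9 and HOXA10 were not called, and HOXD1 rose.

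HOX proteins bind DNA with partners of the TALE homeodomain class, and genes of that class changed in both directions. Of 9 tested genes of the class 3 rose and 4 fell (77.8% called, where 83.4% of all tested genes were called, 35.1% higher and 48.2% lower). The median difference was -0.03 on the log2(TPM + 1) scale against -0.13 over all genes. The class is wider than the HOX partners, as TGIF1 is among the rises and TGIF2 among the falls. PBX3, which had the largest rise, was at 7.02, 9.06 and 9.44 TPM in parental and at 16.84, 18.48 and 19.77 TPM in sphere libraries (difference 1.03 ± 0.10, adjusted p = 7.5e-06). MEIS1 was at 2.81, 2.89 and 2.56 TPM and at 0.79, 0.77 and 0.9 TPM (difference -1.04 ± 0.10, adjusted p = 4.7e-06). It passed the level filter only through its parental libraries, so its group means had to differ, with sphere lower. The groups of PBX3 and MEIS1 lay apart, in opposite directions. PBX2 was at 36.4 ± 1.02 and 35.7 ± 1.65 TPM (adjusted p = 0.59). MEIS2 fell from 7.81 ± 0.56 to 3.5 ± 0.50 TPM, and PKNOX1, of the same class, rose from 5.22 ± 0.10 to 10.9 ± 0.25 TPM.

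Chromatin regulators that keep HOX clusters silent or active changed in both directions. Of 31 tested Polycomb genes 8 rose and 20 fell (median -0.52, 90.3% called), or 10 and 19 with median-of-ratios scaling. Over all tested genes 83.4% were called, 35.1% higher and 48.2% lower, with a median of -0.13. EZH2, the main histone methyltransferase of Polycomb repressive complex 2, was at 89.7, 87.85 and 83.28 TPM in parental and at 13.41, 14.58 and 13.55 TPM in sphere libraries (difference -2.57 ± 0.05, adjusted p = 1.1e-10). Its paralogue EZH1 rose from 10.5 ± 1.07 to 19.0 ± 0.82 TPM. The partner JARID2 had the largest rise, from 12.9 ± 0.56 to 34.8 ± 0.60 TPM (difference 1.37 ± 0.05, adjusted p = 6.5e-09). Of 21 tested trithorax and related genes 7 rose and 11 fell (85.7% called, median -0.27), or 9 and 10 with median-of-ratios scaling, with PSIP1, which tethers MLL complexes to chromatin, falling from 86.2 ± 1.37 to 30.2 ± 1.64 TPM and KDM6B, a demethylase that removes the Polycomb mark, rising from 7.87 ± 0.88 to 20.1 ± 0.71 TPM.

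Of 14 tested retinoid genes, 10 rose and 3 fell (median 0.47), 92.9% called against 83.4% of all tested genes, of which 35.1% were higher. DHRS9, a retinol dehydrogenase also known from differentiating epithelium, was at 0.61, 0.27 and 0.4 TPM in parental and at 177.97, 167.99 and 173.34 TPM in sphere libraries (difference 6.94 ± 0.09, adjusted p = 4.7e-12). STRA6, a membrane receptor for the retinol carrier, was at 0.27, 0.14 and 0.2 TPM and at 4.65, 3.95 and 3.15 TPM (difference 2.02 ± 0.13, adjusted p = 2.7e-07). DHRS9, STRA6 and CYP26B1 passed the level filter only through their sphere libraries and ALDH1A1 only through its parental ones. The group means of these genes therefore had to differ in that direction. The receptor RARA fell from 20.2 ± 1.87 to 7.88 ± 0.68 TPM, and the aldehyde dehydrogenase ALDH1A1, which makes retinoic acid, went from 2.36 ± 0.60 to 0.37 ± 0.13 TPM (difference -1.28 ± 0.15, adjusted p = 2.6e-05). Of 6 tested regulators of HOX transcription from the embryo, GDF11, a ligand that promotes posterior HOX expression in the mouse, fell from 16.9 ± 2.39 to 4.73 ± 0.35 TPM, 4 others also fell, and EGR2, a hindbrain transcription factor, was called at 0.84 ± 0.24 and 1.79 ± 0.05 TPM, having passed the level filter only through its sphere libraries. The CDX genes were not among those tested. Whether any of these genes acts on the HOX clusters in CAL-27 was not tested.

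**Figure D5:**
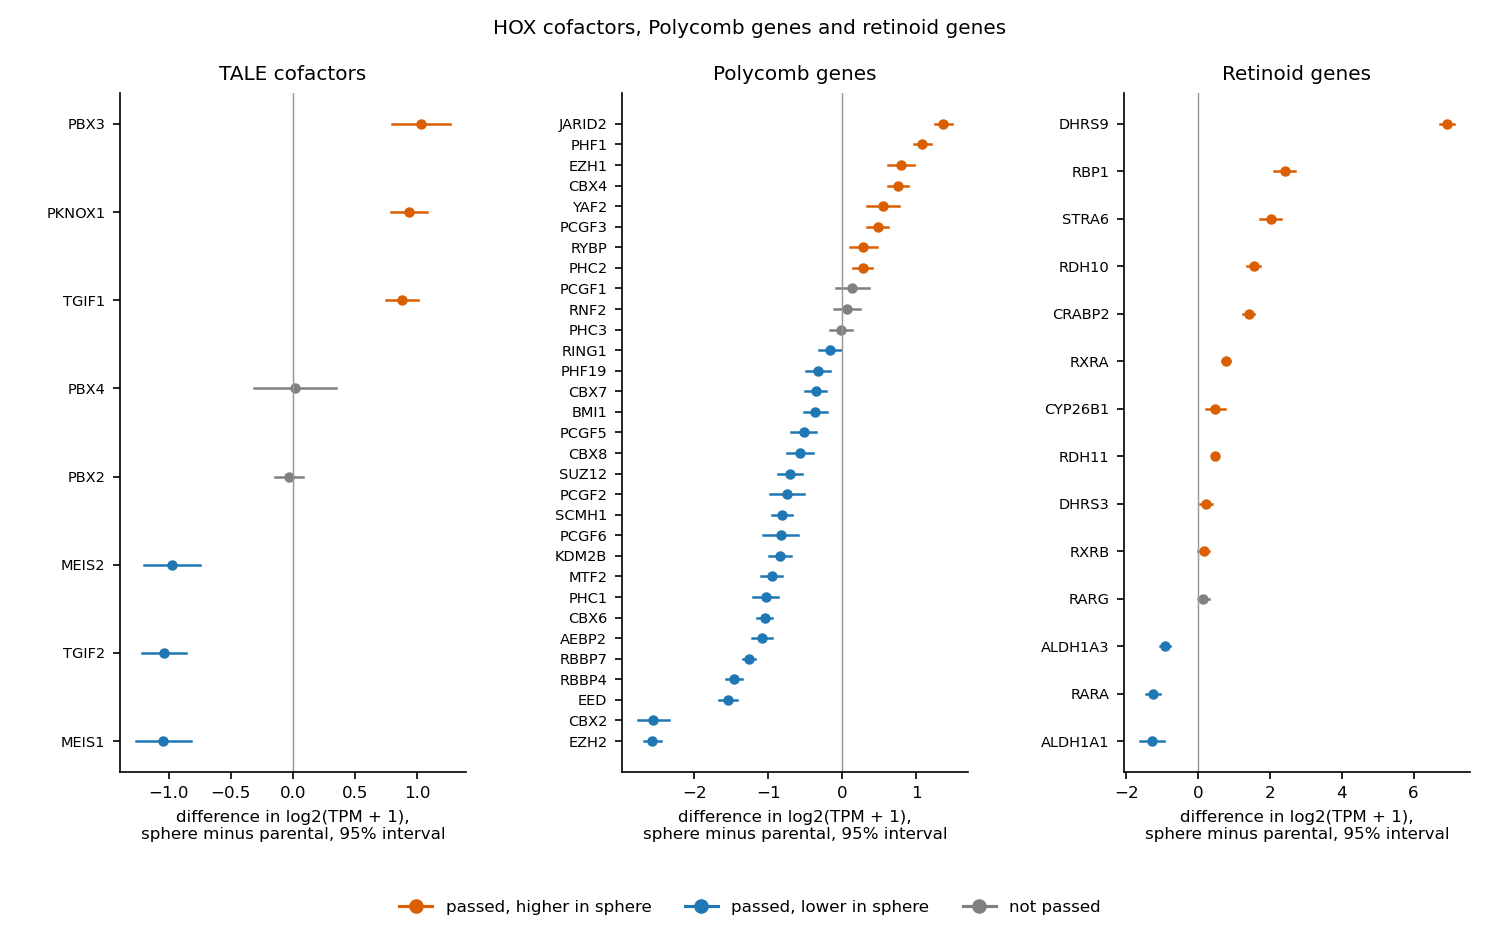
Difference in log2(TPM + 1), sphere minus parental, of tested TALE class genes, Polycomb genes and retinoid genes, with 95% intervals from limma. Orange genes rose, blue genes fell and grey genes were not called. EZH2 (-2.57) and DHRS9 (6.94) lie farthest from 0 in their panels.

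Most genes that flank HOXD did not move in the direction of the cluster. Of 7 tested flanking genes of HOXD, 1 rose and 6 fell, with HNRNPA3, a splicing factor, going from 628 ± 28.5 to 114 ± 6.01 TPM. Around HOXA 3 of 5 rose and 2 fell, led by SKAP2, an adaptor protein, which rose from 19.2 ± 0.64 to 63.9 ± 2.01 TPM. Around HOXB 2 of 4 fell and none rose, and around HOXC 1 of 6 rose and 5 fell. Over all 22 flanking genes tested 5 rose and 15 fell (90.9% called, median -0.38), where 83.4% of all tested genes were called and 48.2% were lower.

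Reads from overlapping transcripts could be counted with HOX genes, and their part in these values was not tested. Of 27 noncoding or antisense genes of the clusters looked for, 1, PRAC2, matched a symbol in the table, at a mean of 0.563 TPM in parental libraries and 0 in sphere libraries. In GENCODE 29, 25 of the 39 HOX genes share exonic bases with another gene, 19 of them with a gene on the opposite strand, and the use of strand in counting is not given in the sources at hand. Called genes that overlap a gene on the opposite strand are HOXA6 and HOXA7 (HOXA-AS3), HOXA11 (HOXA11-AS), HOXB5 and HOXB6 (HOXB-AS3), HOXC9 (HOXC-AS2), HOXC10 (HOXC-AS3), HOXC13 (HOXC13-AS) and HOXD1 (HAGLR). The 14 without any overlap include HOXA2, HOXA5, HOXB7, HOXB9, HOXB13, HOXC11, HOXD8 and HOXD9.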

How the data were processed

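RNA of 3 parental and 3 sphere libraries of CAL-27 was sequenced on a BGISEQ-500 in single-end reads of 50 bases (per the labels' protocols). The authors deposited 1 table of TPM for 17110 genes, per the file headers, and its Control columns were taken as parental. Depth is not kept in TPM, so no counting interval is given. The submitters' processing notes name HISAT, Bowtie2 and GRCm38.p6, a mouse build, while the IDs are human (39 of 39 HOX IDs matched their RefSeq symbols). Counting tool and strand use: not given in the sources used here. Genes with a mean of at least 1 TPM were tested with limma 3.58.1 (trend) in R 4.3.3 on log2(TPM + 1), which understates changes of low genes. Summaries used Python 3.11.15. The limma step was tested on simulated data. No per-sample column was left out.

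The members, lists and motifs were chosen with earlier results of these data known, so counts over them are descriptions, also because genes high in 1 group only can pass the level filter through that group. Named are the HOX genes with 1 TPM in either group, the extremes of each list among called genes, and members used to describe a HOX result. A few genes that this rule takes are not reported here. HOX genes below that level, the cell type markers and the genes named as neighbours or relatives were chosen after their values were seen. So were the list genes named only for how they passed the level filter. Alternatives were a pseudocount of 0.1, other filters, median-of-ratios scaling, a robust prior, array weights, a replicate block and the omission of each library. Correlations between the deviations of same-numbered libraries were 0.018, -0.018 and -0.055, so the numbers were not treated as pairs.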

Additional observations from a re-analysis of the deposited data

How the results depend on the processing

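Of the 18 HOX calls, 16 (10 higher, 6 lower) kept direction and threshold under every alternative that tested them, and HOXB5 and HOXC10 did not. With median-of-ratios scaling, which shifted the median of all genes by 0.14, both lost their call (adjusted p = 0.091 and 0.39). That scaling changed the log2 ratio of the summed TPM from -0.73 to -0.57 in HOXA, from -0.64 to -0.49 in HOXB, from 0.23 to 0.38 in HOXC and from 2.34 to 2.50 in HOXD. Without each cluster's most abundant member (HOXA5, HOXB7, HOXC10 or HOXD10) these ratios were -0.10, -1.16, 0.58 and 1.99. With a filter of 5 TPM, which tests fewer genes, 5 HOX genes were higher, 2 lower and 7 other homeobox genes called. The sign reversed only for genes that were not called: HOXA9 at 0.0122 with a pseudocount of 0.1, at 0.0878 with scaling and between -0.11 and 0.17 with 1 library left out, HOXA10 at 0.0131 with scaling, and with 1 library left out HOXB7 (-0.0300 to 0.17) and HOXC6 (-0.0864 to 0.14). HOX genes reaching the level filter numbered 29 at 0.5 TPM and 22 at 2 TPM. TPM keep no depth, so how far depth limits the low genes is unknown.

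The replicate numbers shared by the groups did not pair the libraries. With a replicate block 10192 of all tested genes were called (10221 without it), with 10 HOX genes higher and 8 lower. HOXB5 was then not called (adjusted p = 0.050).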

Other observations

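Homeobox genes outside the HOX clusters changed in both directions as well. Of 63 listed, 53 were in the table and 29 were tested, of which 13 rose, 11 fell and 5 were not called (82.8% called, near the 83.4% of all tested genes, median difference 0.25 on the log2(TPM + 1) scale). IRX4, a member of the Iroquois family, had the largest rise, from 0.64 ± 0.07 TPM in parental to 4.90 ± 0.64 TPM in sphere libraries (SD, n = 3 each), with a log2(TPM + 1) difference of 1.84 ± 0.11 (SE; limma adjusted p = 1.2e-07). IRX4, IRX1 and DLX2 passed the level filter only through their sphere libraries. DLX4, ALX1, ALX4 and HHEX passed it only through their parental ones. The group means of all of these genes had to differ in that direction. IRX2, the most abundant Iroquois gene, fell from 36.6 ± 2.11 to 23.7 ± 1.16 TPM, while IRX3 rose from 3.24 ± 0.44 to 7.46 ± 0.74 TPM and IRX1 and IRX5 were also higher. DLX4 was at 2.84 ± 0.55 and 0.20 ± 0.03 TPM and DLX2 at 0.52 ± 0.19 and 2.09 ± 0.06 TPM. IRX1, IRX2, IRX3, IRX5, DLX2 and DLX4 were chosen after their values were seen.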
